A study of Mus musculus with 6 samples.

Results

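The genes described here are those through which a cell receives and carries out a signal to die: the death receptors Tnfrsf10b and Fas, the protease Casp8, the kinases Ripk1 and Ripk3, the membrane-permeabilizing protein Mlkl and the gasdermins Gsdmd and Gsdme. They were picked from the count table by symbol, with earlier results of these data known, and are 8 of its 22105 named genes. 4T1 is a mouse mammary carcinoma line grown in culture. The cells received DMSO, the solvent, or 10 µM P3FI-90, an inhibitor of the histone demethylase KDM3B, for 24 h. Each group had 3 RNA-seq libraries and no other allele, transgene or agent was labelled, so the comparison asks how the transcripts of the death machinery differed between inhibitor-treated and solvent-treated cells of a single line.

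When a death receptor binds its ligand, it gathers an adaptor and caspase-8, which can start apoptosis by cleaving executioner caspases. If caspase-8 is held back, RIPK1 can instead pass the signal to RIPK3, which phosphorylates MLKL, and MLKL opens the plasma membrane in the form of death called necroptosis. Gasdermins form pores once a protease has cut them, inflammatory caspases acting on gasdermin D, and this lytic form of death is called pyroptosis.

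The 8 genes did not move as a block. After P3FI-90 treatment, 3 of them rose (Ripk1, Fas and Tnfrsf10b), 3 fell (Gsdmd, Gsdme and Mlkl), Casp8 was not called in either direction, and Ripk3 had no count in any library. Ripk1 rose 1.86-fold and Gsdmd fell 2.28-fold, while Fas rose 1.24-fold and Tnfrsf10b 1.12-fold. These calls are to be read against a background in which most genes moved: of the 12288 genes tested with edgeR's quasi-likelihood test, 79.3% had a Benjamini-Hochberg adjusted p under 0.05, 39.9% higher and 39.4% lower. In 6 of the 7 members tested the libraries of the groups did not overlap, and the same held for 81.2% of all genes tested. The normalized counts given below are counts scaled by TMM, edgeR's method for making libraries comparable, to a common library size. A lower count in such bulk RNA cannot separate fewer expressing cells from less RNA per cell.

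**Figure D1:**
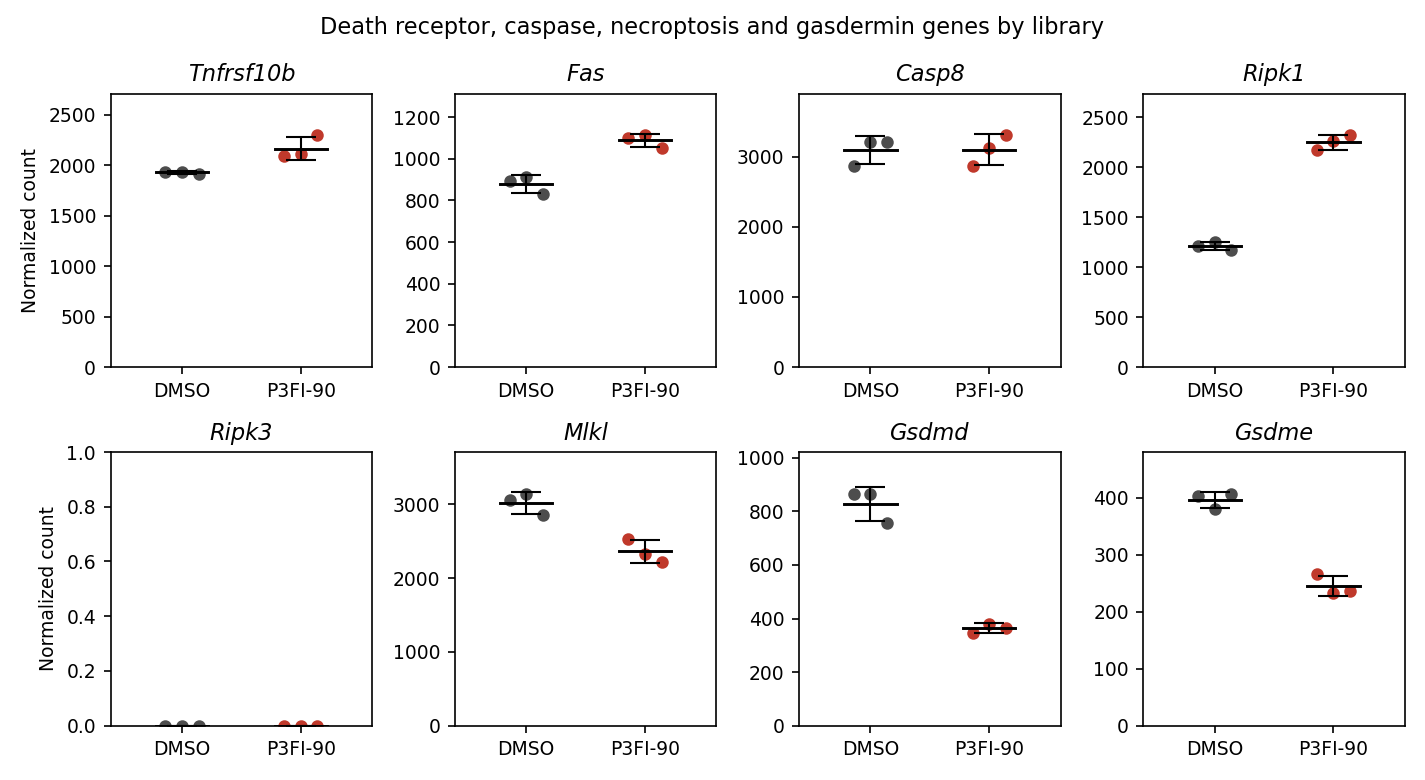
Normalized counts (y axis, linear from 0, a scale of its own in each panel) of the 8 genes in each of the 3 DMSO and 3 P3FI-90 libraries (points), with the group mean (wide line) and SD (bars). Casp8 overlaps between the groups, Ripk3 lies at 0 throughout, and for the other genes every P3FI-90 library lies on one side of every DMSO library.

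Totals on named genes ranged from 31327094 to 37395732 counts per library. All 8 markers of mammary carcinoma epithelium had counts, with a summed level of 4490 to 4741 CPM (counts scaled to the TMM effective library size) in DMSO and 1866 to 1956 in P3FI-90 libraries. Their changes were uneven. Krt7 had 34912 to 44845 raw counts in DMSO and 8456 to 9789 in P3FI-90 libraries. For Cdh1 these were 13618 to 16200 in DMSO and 13145 to 14823 in P3FI-90 libraries. Leukocyte markers summed to 0.873 to 1.88 CPM and 3.84 to 4.21 CPM in that order, with 4 of 9 at 0, among them Cd8a, Adgre1 and Nkg7, endothelial markers to at most 0.378 and 0.961 CPM, and fibroblast markers to 38.1 to 39.3 and 26.0 to 29.1 CPM, with Lum at 0. Single genes carried most of the fibroblast and leukocyte sums. Pdgfra held nearly all fibroblast counts, with Pdgfrb and Dcn at no more than 9 and 3 raw counts in a library, and Csf1r, with 27 to 52 raw counts in DMSO and 114 to 147 in P3FI-90 libraries, most leukocyte counts. The part of these levels in the results below was not tested. Scaling by total counts instead of TMM moved the median log2 fold change over all genes tested from 0.013 to 0.23 and turned the split of calls into 50.3% higher and 29.6% lower. Under that scaling 4 members were higher and 3 lower, since Casp8 joined the higher ones.

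Promoter windows from RefSeq (GRCm38.p6), from 250 bases before to 50 bases after a transcript start, were searched for 6 of the 8 genes, and those of Tnfrsf10b and Gsdmd were not searched here. Those of Ripk1, Fas and Ripk3 are printed because Ripk1 and Fas are those of the 6 with matches to the motifs searched, and because Ripk3 had no counts. Capitals mark motif matches, and the last 50 bases follow the annotated start.
Ripk1, second listed start, chr13:34002624-34002923, plus strand: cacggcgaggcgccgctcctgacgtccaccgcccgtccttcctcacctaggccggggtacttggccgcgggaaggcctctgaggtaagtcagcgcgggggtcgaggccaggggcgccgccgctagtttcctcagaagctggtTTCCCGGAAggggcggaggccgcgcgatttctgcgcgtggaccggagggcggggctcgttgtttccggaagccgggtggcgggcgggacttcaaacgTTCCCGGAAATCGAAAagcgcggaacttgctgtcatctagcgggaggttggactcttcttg
Fas, chr19:34290409-34290708, plus strand: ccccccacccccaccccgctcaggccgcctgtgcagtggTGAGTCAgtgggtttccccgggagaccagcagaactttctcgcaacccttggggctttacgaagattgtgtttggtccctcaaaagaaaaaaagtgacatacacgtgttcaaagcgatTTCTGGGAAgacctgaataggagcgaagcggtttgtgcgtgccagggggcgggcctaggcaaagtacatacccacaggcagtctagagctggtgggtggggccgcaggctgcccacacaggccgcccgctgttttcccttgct
Ripk3, chr14:55788808-55789107, minus strand: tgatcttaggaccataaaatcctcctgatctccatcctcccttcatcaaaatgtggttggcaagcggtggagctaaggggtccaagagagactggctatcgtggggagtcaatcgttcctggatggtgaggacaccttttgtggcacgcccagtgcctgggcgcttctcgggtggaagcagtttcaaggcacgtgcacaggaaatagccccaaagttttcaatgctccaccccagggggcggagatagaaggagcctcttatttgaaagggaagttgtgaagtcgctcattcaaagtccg
The letters searched on both strands were GAAANNGAAA (ISRE, the element bound by interferon-activated complexes), TTCNNNGAA (GAS, bound by STAT dimers), GGGANTTTCC (NF-κB), TGATGCAA (a composite element of ATF4 and C/EBP) and TGANTCA (AP-1). The Ripk1 window holds 2 GAS matches, at bases 143 to 151 and 240 to 248, and an ISRE match at bases 246 to 255, which overlaps the GAS match beside it and spans the start. In the Fas window there is a GAS match at bases 158 to 166 and an AP-1 match at bases 40 to 46. Of 32851 promoter windows of the same length, 3.44% hold the ISRE letters, 8.30% GAS, 0.411% NF-κB, 0.895% the ATF4 element and 7.81% AP-1. None of these letters occur in the Ripk3 window, in that of the other Ripk1 start or in those of Casp8, Mlkl and Gsdme. These matches describe letters, and no binding was measured here. Whether matches go with the direction of change was not tested.

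Tnfrsf10b (ENSMUSG00000022074) encodes the mouse receptor for TRAIL. Its normalized counts were 1933, 1939 and 1919 in the DMSO libraries and 2090, 2113 and 2299 in the P3FI-90 libraries. The third P3FI-90 library stood highest, and all 3 lay above the DMSO libraries, which were within a narrow range. The mean rose from 1930 ± 10.4 to 2168 ± 115 (SD, n = 3), or by 0.17 on the log2 scale (SE 0.052), with an adjusted p of 0.00895 in edgeR's quasi-likelihood test. This is a rise of 12.3%, and 83.7% of the genes tested had a larger absolute change. Without the third P3FI-90 library the log2 fold change was 0.12 and the call was lost (adjusted p = 0.0677), and scaling by total counts raised it to 0.38. Other genes, Gm15574 first among them, share 6.21% of the 50-base transcript windows of Tnfrsf10b. What this adds to its counts was not tested.

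Fas (ENSMUSG00000024778), the receptor for Fas ligand, had 895, 913 and 833 normalized counts in DMSO and 1102, 1113 and 1053 after P3FI-90. The groups did not overlap, the lowest treated library lying above the highest DMSO library. Fas rose by 0.31 on the log2 scale (SE 0.065, adjusted p = 0.000593), from a mean of 880 ± 42.0 to 1090 ± 32.0 (SD, n = 3). Scaled by total counts the value was 0.52. Within a library, the counts of Tnfrsf10b to those of Fas stood at a geometric mean ratio of 2.19 in DMSO and 1.99 after P3FI-90, and the ratios of the groups overlapped (exact two-sided permutation test, p = 0.3, where 3 libraries against 3 cannot go below 0.1). The overlap rests on the third P3FI-90 library, without which the log2 ratios differed by -0.21 instead of -0.14.

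The ligands of both receptors were scarcely counted. Fasl had 0, 0 and 2 raw counts in DMSO and 0, 4 and 0 after P3FI-90, and Tnfsf10, which encodes TRAIL, had 0, 2 and 0 against 12, 13 and 4. Neither passed the filter on low counts, so no test was made. Tnf, the ligand of the TNF receptors, did pass with 10.1, 27.7 and 12.2 normalized counts against 32.7, 47.7 and 24.5. Its libraries overlapped between the groups, and its rise of 1.09 on the log2 scale (SE 0.47, adjusted p = 0.0457) lost the call in 8 of 15 alternatives, in which the adjusted p reached up to 0.204.

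Of the 15 other death ligands and receptors listed, 10 could be tested, and 3 were higher, 3 lower and 4 neither. The shares over all genes tested were 39.9% higher and 39.4% lower. Tnfrsf12a, the receptor for TWEAK, rose by 0.69 (SE 0.039) from a mean of 8053 normalized counts. Tnfrsf23, a decoy receptor for TRAIL, rose by 0.62, although its neighbour Tnfrsf22 shares 19.3% of its 50-base transcript windows, so the counts of the pair are uncertain. Tnfrsf21, known as death receptor 6, fell by 0.45 on the log2 scale, and by 0.23 with total counts. Tnfrsf26 fell by 1.42, with a mean of 65.4 normalized counts in DMSO and 24.1 after P3FI-90.

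Casp8 (ENSMUSG00000026029), the initiator caspase of death receptors, had 2866, 3208 and 3207 normalized counts in DMSO libraries and 2868, 3119 and 3304 in P3FI-90 libraries. The lowest and highest values of the groups all but coincide, and the libraries interleave. The log2 fold change was 0.00 (SE 0.060, adjusted p = 0.978), and its 95% interval ran from -0.13 to 0.13. Scaling by total counts, which raised the median of all genes as given above, put Casp8 at 0.22 with an adjusted p of 0.00459.

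Cflar, which encodes the caspase-8 inhibitor c-FLIP, rose by 0.41 (SE 0.050, adjusted p = 3.37e-06). A ratio of 2 genes within a library does not depend on how libraries are scaled. The ratio of Casp8 to Cflar counts was 1.28, 1.38 and 1.44 in DMSO libraries and 0.968, 1.08 and 1.04 in P3FI-90 libraries, so every treated library lay below every DMSO library. The difference of the log2 ratios was -0.41, and the exact two-sided permutation test gave p = 0.1, the smallest that 3 libraries against 3 allow (adjusted p = 0.15 over the 3 ratios that could be computed).

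Casp6, an executioner caspase, had 1207, 1239 and 1196 normalized counts in DMSO and 238, 215 and 241 after P3FI-90. Every treated library lay far below every DMSO library. The fall was 5.25-fold, from 1214 ± 22.4 to 231 ± 14.2 (SD, n = 3), larger than that of any of the 8 members (log2 fold change -2.39, SE 0.080, adjusted p = 3.56e-12). Casp9, the initiator caspase of the mitochondrial route, fell by 0.33, a call lost when libraries were scaled by total counts (-0.12, adjusted p = 0.217). Casp2 rose by 0.57 (SE 0.062, adjusted p = 1.03e-06 in edgeR's quasi-likelihood test), and by 0.78 with total counts. Casp9 and Casp2 fall outside the rule for naming genes given below.

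Among inflammatory caspases, Casp4 (caspase-11 in mice), the sensor of cytosolic lipopolysaccharide that cuts gasdermin D, rose from 33.4, 33.7 and 27.6 normalized counts to 120, 118 and 130. All 3 treated libraries lay far above those with DMSO, and the fold was 3.88 (log2 fold change 1.96, SE 0.24). Casp1, the caspase of inflammasomes, fell from 40.8 ± 13.2 to 15.9 ± 1.08 (log2 fold change -1.35), and without the first DMSO library its adjusted p was 0.0522. Casp12, named outside the rule, fell by 0.52 on the log2 scale (SE 0.18, adjusted p = 0.0181 in edgeR's quasi-likelihood test). That call was lost with total counts (log2 fold change -0.30, adjusted p = 0.140). Over the 9 caspase genes tested, Casp8 included, of 10 in all, 2 were higher, 5 lower and 2 neither. Under total counts 4 were higher and 3 lower. For all genes tested the shares were 39.9% higher and 39.4% lower, or 50.3% and 29.6% under total counts. Casp14, a skin caspase, had no count.

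**Figure D2:**
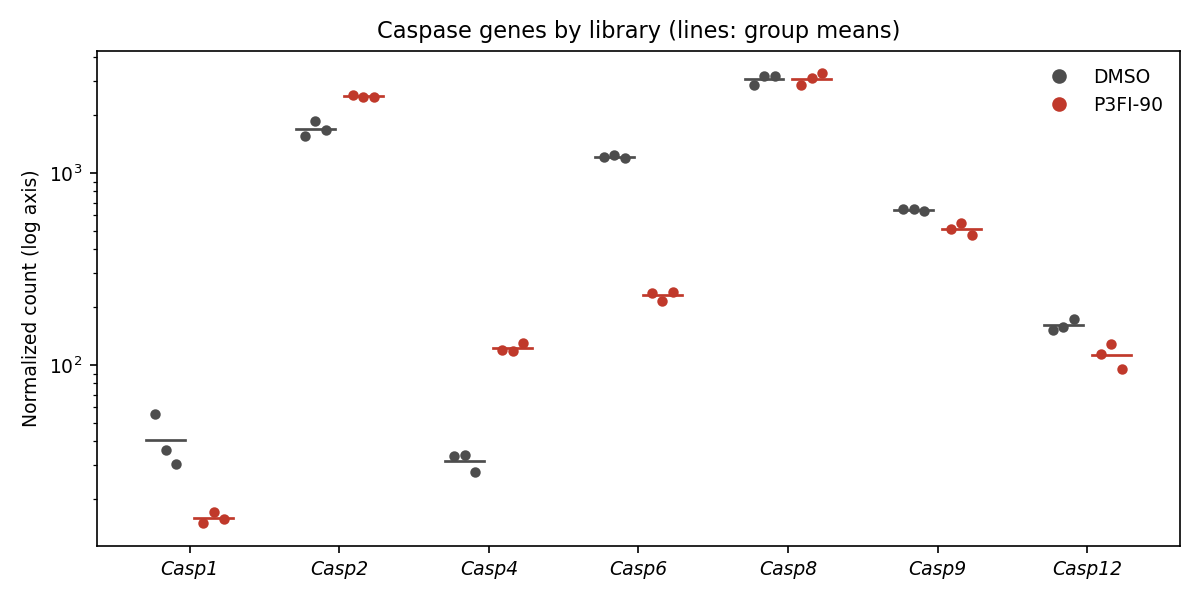
Normalized counts (y axis, log scale) of Casp8 and 6 further caspase genes that passed the filter on low counts, in the 3 DMSO and 3 P3FI-90 libraries (points) with group means (lines). Casp6 lies lower and Casp4 higher in every P3FI-90 library, and Casp8 lies at the same height in both groups.

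The list of caspases with the apoptosome and its regulators had 14 tested genes of 15, of which 5 were higher and 7 lower. This balance turned to 7 higher and 4 lower with total counts. Among all genes tested, 39.9% were higher and 39.4% lower, and with total counts 50.3% and 29.6%. Diablo, whose product relieves inhibition of caspases, rose by 0.56, and Htra2, a mitochondrial protease with a similar role, fell by 0.80. Their values are uncertain, since 42.8% of the exonic bases of Diablo and 43.7% of those of Htra2 overlap exons of other genes in GENCODE M21, and the strandedness of the counting is not given in the sources used here.

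Ripk1 (ENSMUSG00000021408) encodes the kinase that decides between survival signalling, apoptosis and necroptosis below TNF receptors. It had 1211, 1256 and 1167 normalized counts in DMSO libraries and 2171, 2260 and 2319 in P3FI-90 libraries. The groups were far apart relative to the spread within them. Its mean went from 1211 ± 44.8 to 2250 ± 74.5 (SD, n = 3), which is 0.89 on the log2 scale (SE 0.052, adjusted p = 1.17e-09), and 28.5% of the genes tested had a larger absolute change. Exons of Serpinb6a on the other strand and of Gm17084 on the same strand overlap 9.01% of its exonic bases. Other genes, Gm17084 first among them, share 7.87% of the 50-base transcript windows of Ripk1. Serpinb6a fell (log2 fold change -1.48), and the counts of Gm17084 are not reported here. What such shared reads add to the counts of Ripk1 was not tested. Under the 15 alternatives the value of Ripk1 lay between 0.86 and 1.11.

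Of 23 adaptors and checkpoints that act with RIPK1 in the receptor complexes, all tested, 13 were higher, 4 lower and 6 neither. With total counts 16 were higher and 3 lower. Over all genes tested, 39.9% were higher and 39.4% lower, or 50.3% and 29.6% with total counts. The median log2 fold change of the list was 0.28, and 0.49 with total counts, beside 0.013 and 0.23 for all genes tested. Cyld, a deubiquitinase that removes ubiquitin chains from RIPK1, went from 4429, 4520 and 4560 to 10592, 10188 and 10396 normalized counts, a 2.31-fold rise (log2 fold change 1.21, SE 0.034, adjusted p = 6.52e-13). Traf2, an adaptor that brings ubiquitin ligases to the TNF receptor, rose by 0.98. Tab2 and Map3k7, which encode an adaptor and the kinase TAK1 that it links to ubiquitin chains, rose by 0.90 and 0.61. In contrast, Tradd, the adaptor that recruits RIPK1 to the TNF receptor, fell 2.10-fold (log2 fold change -1.07), and Cradd, an adaptor for caspase-2, fell 3.02-fold from a mean of 101 normalized counts. Fadd, which joins caspase-8 to death receptors, rose by 0.87 (adjusted p = 5.69e-07), and Birc3, a ubiquitin ligase for RIPK1, by 0.82 (adjusted p = 3.02e-07), both named for their role after their values were seen, as was Cflar.

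Ripk3 (ENSMUSG00000022221), the kinase that activates MLKL, had a count of 0 in all 6 libraries, although each library held at least 31327094 counts on named genes. Nothing was tested, because a gene at 0 cannot pass the filter. Of the 22105 named genes, 29.2% were at 0 in all libraries, so that a row at 0 was common in this table. A count of 0 allows up to 3 counts over a group, at a 95% limit for counting error alone. The bounds that follow rest on this limit. Per length of transcript, Ripk3 was at least 2690-fold lower than Mlkl and at least 330-fold lower than Ripk1 in DMSO libraries, and at least 2417-fold and 702-fold lower in P3FI-90 libraries. Whether the mates of a pair were each counted is not given in the sources used here, and if so the floor is 6 counts and the bounds for Mlkl become 1345-fold and 1209-fold. No exon of another gene overlaps Ripk3 and none of its 50-base windows occur elsewhere in GENCODE M21 transcripts. Expression of Ripk3 was thus not detectable at this depth in either group, and no change with treatment could be measured.

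Mlkl (ENSMUSG00000012519), which encodes the protein that permeabilizes the membrane in necroptosis, was well counted, with 3056, 3146 and 2853 normalized counts in DMSO and 2536, 2332 and 2225 after P3FI-90. Every treated library was lower than every DMSO library. The mean fell from 3018 ± 150 to 2364 ± 158 (SD, n = 3), and the log2 fold change was -0.35 (SE 0.057, adjusted p = 6.15e-05). Scaled by total counts the change was smaller, -0.14, with an adjusted p of 0.0397. Ripk1 and Mlkl, which stand on either side of Ripk3 in the pathway, thus moved in opposite directions.

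The 14 other necroptosis genes were all tested, with 7 higher, 4 lower and 3 neither (10 higher and 3 lower with total counts). All genes tested had shares of 39.9% higher and 39.4% lower (50.3% and 29.6% with total counts). Zbp1, a sensor of Z-form nucleic acids that can engage RIPK3, had 15.2, 12.0 and 4.08 normalized counts in DMSO and 79.5, 119 and 98.9 after P3FI-90. The groups were clearly apart at this low level, and the change on the log2 scale, 3.24 (SE 0.38, adjusted p = 2.53e-06), was the largest among the pathway genes. Trpm7, an ion channel described downstream of MLKL, rose by 0.52, and Ipmk, an inositol phosphate kinase whose products enable MLKL, fell by 0.73. Pgam5, a mitochondrial phosphatase, rose by 1.13, but 58.1% of its exonic bases overlap Gm26718 on the other strand.

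Gsdmd (ENSMUSG00000022575), the gasdermin cut by inflammatory caspases, changed most of the 7 members tested. It had 863, 866 and 755 normalized counts in DMSO libraries and 344, 381 and 364 in P3FI-90 libraries. The highest treated library lay below even the lowest DMSO library. The mean fell from 828 ± 63.1 to 363 ± 18.5 (SD, n = 3), 2.28-fold, and the log2 fold change was -1.19 (SE 0.089, adjusted p = 1.87e-08). It was the 1 member past a log2 fold change of 1 in either direction, as were 12.7% of the genes tested upwards and 10.6% downwards. In the alternatives the value ranged from -1.25 to -0.97, the latter with total counts, where Ripk1 at 1.11 passed 1 and Gsdmd did not.

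Gsdme (ENSMUSG00000029821), a gasdermin that can turn apoptosis into lytic death, had 403, 381 and 407 normalized counts in DMSO and 266, 234 and 237 after P3FI-90. These groups did not overlap either. Gsdme fell 1.62-fold, from 397 ± 14.3 to 246 ± 17.6 (SD, n = 3), and its log2 fold change was -0.69 (SE 0.11, adjusted p = 6.19e-05). The ratio of Gsdme to Gsdmd counts was 0.467, 0.439 and 0.539 in DMSO libraries and 0.772, 0.613 and 0.651 after P3FI-90, since Gsdmd fell by more. The log2 ratios differed by 0.49 with all treated libraries above the DMSO libraries, and the exact two-sided permutation test again gave its smallest possible p = 0.1 (adjusted p = 0.15).

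Other gasdermins were nearly absent. Of the 9 gasdermin genes listed, 3 passed the filter, namely Gsdmd, Gsdme and Gsdmc4, and the last had at most 17.8 normalized counts in any library and was not called (adjusted p = 0.183). Gsdma2 and Gsdmc had no count in any library. Reads of the Gsdmc genes are uncertain, since 16.1% (Gsdmc) to 51.3% (Gsdmc2) of their 50-base transcript windows are shared with other genes.

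Of 21 further pyroptosis and inflammasome genes, 8 could be tested, with 4 higher, 1 lower and 3 neither. The background over all genes tested was 39.9% higher and 39.4% lower. Il1a, an alarmin cytokine, fell from 4091 ± 160 to 2304 ± 17.2 normalized counts (log2 fold change -0.83, SE 0.045, adjusted p = 4.88e-10). Gm14023 on the other strand overlaps 11.2% of the exonic bases of Il1a. Il1b, the cytokine that caspase-1 matures, rose from 19.2, 16.9 and 16.3 to 60.8, 54.8 and 92.1, with every treated library above the DMSO libraries. Ninj1, which ruptures the plasma membrane after gasdermin pores form, rose by 0.62 (SE 0.076). Nlrp3, an inflammasome sensor, had 16.2, 0 and 5.10 normalized counts in DMSO and 29.0, 12.6 and 35.3 after P3FI-90, overlapping between groups, and its call (log2 fold change 1.77, adjusted p = 0.0363) was lost in 5 of 14 alternatives. Leaving out 1 library moved this value of Nlrp3 between 1.25 and 3.17, the highest without the first DMSO library. Dpp9, a protease that restrains another sensor, rose by 0.13 (0.35 with total counts), and this call was lost in 3 alternatives (adjusted p up to 0.0700). The inflammasome adaptor Pycard had at most 6.02 normalized counts in a library and was not tested.

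Over all 88 genes of the 5 lists, 69 were tested, of which 32 were higher, 19 lower and 18 neither. Their median log2 fold change was 0.13, beside 0.013 for the whole table. Of the whole table, 39.9% of the genes tested were higher and 39.4% lower. With total counts 40 of the listed genes were higher and 13 lower, beside 50.3% and 29.6% of all genes tested. In all, 7 listed genes were higher and 6 lower past a log2 fold change of 1, beside 12.7% and 10.6% of all genes tested. Genes of low counts had smaller values with limma on log2(CPM + 1), in which the added 1 shrinks them, at 1.56 for Zbp1, 1.24 for Casp4, 0.97 for Il1b, 0.52 for Nlrp3, 0.44 for Tnf, -0.56 for Casp1, -0.75 for Tnfrsf26 and -0.99 for Cradd, and each was still called.

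**Figure D3:**
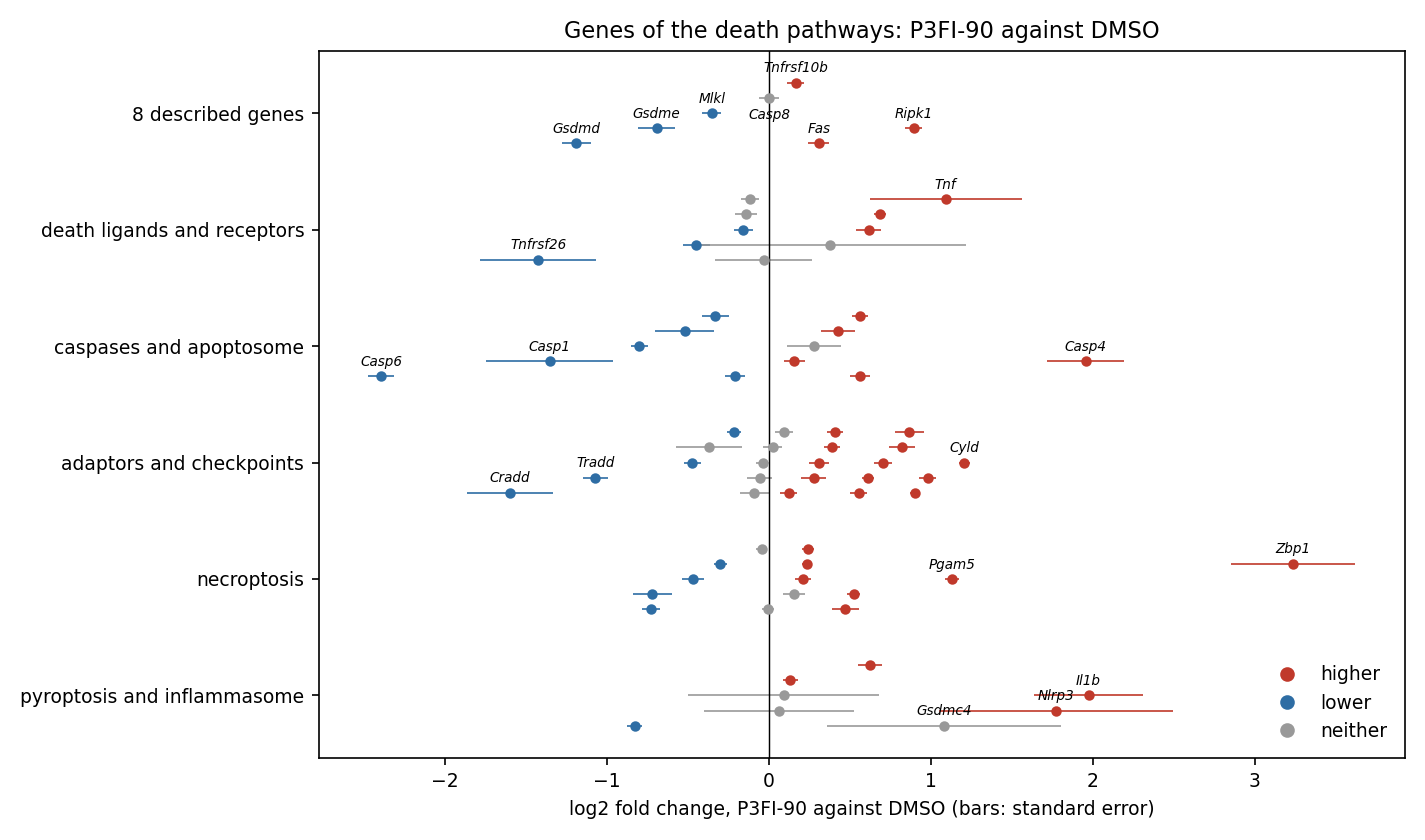
Log2 fold change of P3FI-90 against DMSO (x axis, bars showing the standard error) for the tested genes reported here, in rows for the described genes (7 of 8 tested, all named) and the 5 lists, coloured by whether the adjusted p was under 0.05 and in which direction. In the lists, genes past 1 in either direction are named, with Zbp1 at 3.24 and Casp6 at -2.39 as the ends of the range.

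Compared per length, as TMM-scaled CPM per kilobase of the principal transcript, the order of the 8 genes differed between the groups only among neighbours. In DMSO, Mlkl (43.6 ± 2.17) stood above Casp8 (34.1 ± 2.18, SD, n = 3), followed by Tnfrsf10b (17.3 ± 0.0934) and Fas (16.9 ± 0.808), which did not differ beyond their spread. Gsdmd (13.2 ± 1.00), Ripk1 (5.34 ± 0.197) and Gsdme (4.52 ± 0.163) came next. After P3FI-90, Casp8 (34.2 ± 2.42) and Mlkl (34.1 ± 2.28) could not be separated. Fas (21.0 ± 0.616) and Tnfrsf10b (19.4 ± 1.03) overlapped. Ripk1 (9.91 ± 0.328) and Gsdmd (5.78 ± 0.294) had exchanged places, and Gsdme (2.80 ± 0.200) remained the lowest of the genes with counts. These lengths come from GENCODE M21, whose genome build is older than the GRCm39 named in the submitters' processing notes.

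**Figure D4:**
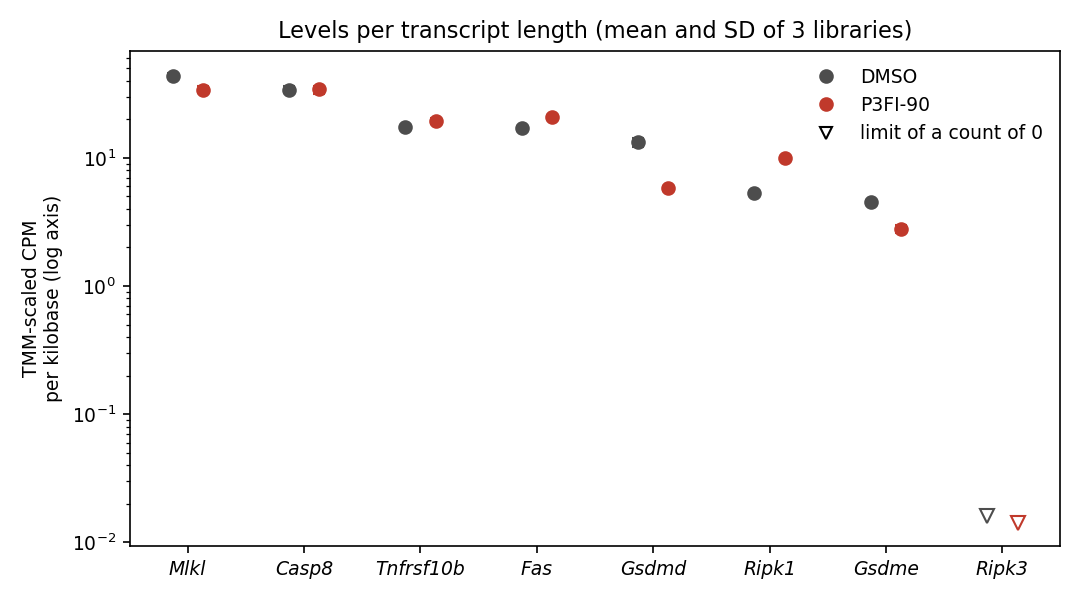
Level per transcript length (y axis, log scale, TMM-scaled CPM per kilobase) of the 8 genes, as mean and SD of 3 libraries per group, with bars hidden where smaller than the point. Triangles mark the most that a count of 0 allows for Ripk3, far below all others, and Gsdmd and Ripk1 exchange places between DMSO and P3FI-90.

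The directions of Ripk1, Fas, Tnfrsf10b, Mlkl, Gsdmd and Gsdme were the same under all 15 alternatives, and of their calls, that of Tnfrsf10b was lost once. Labels do not say whether the libraries of a group came from separate cultures, so the p-values measure the spread between these libraries, which may be technical.

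**Figure D5:**
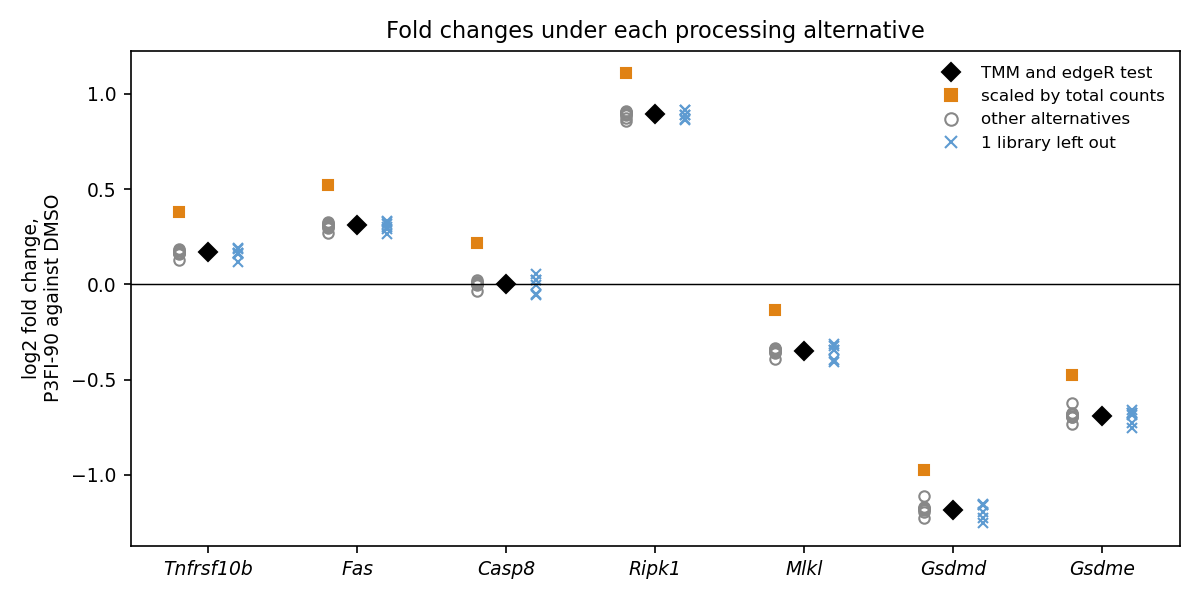
Log2 fold change (y axis) of the 7 tested members under TMM and edgeR's test (diamonds), total counts (squares), the other alternatives (circles) and with 1 library left out (crosses). Total counts lift every gene by about the same amount, and Casp8 alone lies on both sides of 0.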

How the data were processed

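The authors sequenced mRNA libraries of 4T1 cells on an Illumina platform, and they deposited raw counts per gene, as whole numbers without normalization. The submitters' processing notes name CASAVA, HISAT2, StringTie and GRCm39, while the annotation, the counting step and its strandedness are not given in the sources used here. Rows without a gene name (285 assembled transcripts and 11 transcript identifiers, 0.483% to 0.556% of a library's counts) were left out.

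The filter (filterByExpr), TMM scaling and two-sided quasi-likelihood test were those of edgeR 4.0.16 (R 4.3.3), with Benjamini-Hochberg adjustment over 12288 genes and a threshold of 0.05. Normalized counts were scaled to the mean effective library size. The chi-square per gene between libraries of a group, 5.44 to 8.43, exceeded counting noise. Ratios of 2 genes used log2 counts (0.5 added as an alternative) and exact permutation tests (scipy 1.17.1). Floors for a count of 0 cover counting error only. Promoters came from RefSeq, gene lengths and overlaps from GENCODE M21.

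Alternatives were DESeq2 size factors, total counts, upper quartile, no filter, a minimum of 10 counts per library, limma 3.58.1 (voom, or on log2(CPM + 1)), DESeq2 1.42.0, a replicate block, and each library left out. Named genes were all members, the 4 of each list with the smallest p among those called, and listed genes called past a log2 fold change of 1, of which some are not reported here. Members, lists, motifs and this rule were chosen with earlier results of these data known. Some other listed genes, among them Cflar, Fadd, Birc3, Casp2, Casp9 and Casp12, are named outside the rule.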

Additional observations from a re-analysis of the deposited data

How the results depend on the processing

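Each of 33 named-gene fold changes was recomputed under the alternatives, 493 comparisons in all, of which 469 kept direction and side of the threshold, 18 lost the call (8 of Tnf, 5 of Nlrp3, 3 of Dpp9, 1 each of Casp1 and Tnfrsf10b), 1 gained it and 5 changed sign. All 5 sign changes were of Casp8, whose log2 fold change was -0.037 under the upper quartile, -0.0044 without a filter, -0.054 without DMSO replicate 1, -0.0057 without P3FI-90 replicate 2 and -0.051 without P3FI-90 replicate 3, none of them called, and which with 1 library left out ranged from -0.054 to 0.053. The cause was not tested. With 1 library left out, members higher numbered 2 to 3, members lower 3, pathway genes higher 29 to 32 and lower 17 to 20, and genes called 9445 to 9708, against 9749 with all libraries.

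Equally numbered libraries did not deviate together (correlations of -0.021, 0.015 and 0.0049 across genes). Counting noise enters these deviations, so the values cannot decide whether such libraries were paired. The replicate block gave 9524 genes called, 3 members higher and 3 lower, and 30 pathway genes higher and 19 lower. No ratio with Ripk3 could be computed, since it had no counts, and depth limits what can be said of Ripk3, Fasl, Tnfsf10 and the Gsdmc genes.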

Other observations

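The genes next to Ripk3 were also low. Adcy4 had no count in any library, and Nfatc4 had 39, 44 and 28 raw counts in DMSO and 5, 4 and 9 after P3FI-90. Over the 6 libraries, the tested genes whose log2 CPM was most like that of Gsdmd were Snrpa1, mt-Nd4l and mt-Nd4 (Pearson r of 0.999 each), and 3184 genes had r over 0.95. These libraries fall into separate treatment groups, so these values describe a shared difference between groups.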
